A study of Mus musculus with 4 samples.

Results

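Chemokines, the small secreted proteins that guide migrating leukocytes, and their receptors were followed in whole mammary gland of young mice with and without the membrane-anchored matrix metalloproteinase MT2-MMP. The genes described are all those whose single annotated symbol is Ccl, Cxcl, Ccr or Cxcr followed by a digit, with Ccl17 and Ccl22 left out, each read at its brightest probe set. This gave 43 of the 17097 genes measured, 30 ligands and 13 receptors. RNA came from intact inguinal glands at postnatal day 10, from Mt2-mmp(-/-) mice, a knockout in every tissue, and from Mt2-mmp(+/+) littermates, both congenic on C57Bl/6J, with 2 arrays per genotype. The labels call the arrays of a genotype biological replicates, and do not say whether an array holds 1 animal or a pool. They give neither the sex of the mice nor the part of the gene that was deleted. A check of the genotypes on the targeted gene was not part of what was analysed here.

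Chemokines bind to G-protein-coupled receptors on leukocytes and form gradients by binding to the sugar chains of the matrix. CC ligands mostly draw monocytes, eosinophils and lymphocytes, and CXC ligands draw neutrophils or lymphocytes. Metalloproteinases are known to clip chemokine proteins, which an array for RNA does not show. In the growing mammary gland macrophages and eosinophils gather around the ducts, and Ccl11, also called eotaxin, is known for drawing eosinophils there.

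All values are the authors' log2 values per probe set, and a log2 fold change is the knockout mean minus the wild-type mean, with n = 2 arrays per genotype. Array medians ran from 5.19 to 5.21, and those of 23 nonspecific control probe sets from 3.26 to 3.28. The brightest control had a mean of 6.88, and 1 control reached 5. A gene with a mean of at least 5 is called expressed here, and 6 expressed chemokine genes lay above the brightest control. Probe sets differ in how strongly they bind, so a brighter gene is not shown to have more RNA than a dimmer one. Markers of the labelled tissue were present: 5 of 5 adipocyte markers, 7 of 9 luminal and 5 of 5 basal epithelial markers, 7 of 7 endothelial and 10 of 10 macrophage markers were expressed. In whole tissue, fewer cells of a type and less RNA per cell cannot be told apart.

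Of the 43 genes 21 were expressed, namely 19 of the 30 ligands and 2 of the 13 receptors. Cxcl17 and Ccl7 lay just inside the minimum with means of 5.31 and 5.32, and Cxcr3 and Cxcl10 just outside it with 4.81 and 4.79. Their levels ran from 5.31 for Cxcl17 to 10.50 for Cxcl12. The ligands of the Ccr2 group and of the Ccr3 group were expressed in 4 of 4 and 2 of 2 cases. None of the 4 measured ligands that draw neutrophils through an ELR motif (Cxcl1, Cxcl2, Cxcl5 and Cxcl15) was expressed, nor was any of the 4 CXC receptors measured.

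Promoter sequence is given for a choice of genes with lower means in knockouts, each with a motif match. They are the interferon-inducible pair Cxcl9 and Cxcl10, and Cxcl14, Ccl3 and the receptor Ccr1. RefSeq (GRCm38.p6) gave promoters for 31 of the 43 genes. The 250 bases before the annotated start were searched on both strands for GAAANNGAA, a pair of half-sites bound by interferon-regulated factors, for TTCNNNGAA, the GAS element bound by STAT proteins, and for the NF-kB consensus. Each is written 5′ to 3′ along the gene's own strand, with matches in capitals: GAAANNGAA or its reverse complement in Cxcl9, Cxcl14 and Ccl3, that motif followed by NF-kB matches in Cxcl10, and an NF-kB match in Ccr1.
Cxcl9, chr5:92328080-92328329, minus strand: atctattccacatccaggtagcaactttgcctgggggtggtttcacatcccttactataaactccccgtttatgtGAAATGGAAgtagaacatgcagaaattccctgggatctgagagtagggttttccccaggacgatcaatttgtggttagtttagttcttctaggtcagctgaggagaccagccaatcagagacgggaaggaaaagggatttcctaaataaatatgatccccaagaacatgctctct
Cxcl10, chr5:92348890-92349139, minus strand: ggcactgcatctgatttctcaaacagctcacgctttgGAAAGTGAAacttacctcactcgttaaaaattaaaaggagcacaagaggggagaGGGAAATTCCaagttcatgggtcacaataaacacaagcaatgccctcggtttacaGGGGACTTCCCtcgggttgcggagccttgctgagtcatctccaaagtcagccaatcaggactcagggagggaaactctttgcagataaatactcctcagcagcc
Cxcl14, chr13:56296705-56296733, minus strand: gtgtccacagGAAACAGAAaagcagcacc
Ccl3, chr11:83649399-83649427, minus strand: cagccccggaTTCCATTTCctcatctgct
Ccr1, chr9:123968747-123968776, minus strand: ctttagaaggGGGAGGCTCCtcactgacca

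GAAANNGAA was found in 7 of the 31 genes (Ccl1, Ccl19, Ccl3, Ccr2, Cxcl10, Cxcl14 and Cxcl9). It was in 7 of their 35 promoter windows (20.0%), against 7.13% of 32851 windows of the same length. In Cxcl9 it began 175 bases before the start, in Cxcl10 213 bases before it, in Cxcl14 172 and in Ccl3 39. The NF-kB consensus was found in 9 of the 31 genes, among them the neutrophil-drawing Cxcl1 and Cxcl2. It was in 9 of the 35 windows (25.7%), against 7.25% of all windows. In Cxcl10 it began 159, 104 and 103 bases before the start, and the last 2 matches overlap. The GAS element was found in 3 of the 31 genes, 1 of them Cxcl14, and in 3 of the 35 windows (8.57%), against 7.02% of all windows. The expressed genes Ccl6, Ccl8, Ccl21b and Ccl27a, also with lower means in knockouts, had no match to any of the 3 motifs, and neither had Cxcl12. Cxcl17 was among the genes without a promoter sequence. The 3 motifs were counted separately, and their letters allow them to overlap. These matches are descriptions of letters, not of bound sites.

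The comparison of genotypes asked which chemokine genes differ when MT2-MMP is missing. None of the 43 genes passed the threshold of 0.05 after Benjamini-Hochberg adjustment over all genes in limma (adjusted p of 0.693 to 1.00), where 0.00585% of all genes did. At an unadjusted p under 0.05 limma gave 5 of the 43 genes (11.6%), against 7.01% of all genes. All 5 had lower values in knockouts: the ligands Ccl3, Cxcl10, Cxcl17 and Ccl8 and the receptor Ccr1. Over all genes 3.38% were at that level and lower in knockouts. Of the 5, Ccl3 alone stayed under 0.05 without knockout 1 (2 genes in all, the other Ccl11, higher in knockouts) and without wild type 1 (3 genes in all, the others Cxcl9 and Cxcl14). Among expressed genes the count was 3 of 21 (14.3%), against 9.01% of all expressed genes.

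Most differences were small. The 2 knockout and 2 wild-type arrays did not overlap in 16 of the 43 genes (37.2%), near the 37.6% of all genes. Of the 16, 5 were higher and 11 lower in knockouts, against 3113 higher and 3324 lower over all genes. In the 21 expressed genes the arrays did not overlap in 9 (42.9%), near the 40.5% of all expressed genes. Of the 9, 1 was higher and 8 lower, where all expressed genes split nearly evenly, with 2258 higher and 2260 lower. Below 0 were the fold changes of 17 of these 21 genes (81.0%), compared with 49.6% of all expressed genes. Leaving out Cxcl12, whose probe sets disagree on the direction, 16 of 20 were below 0, and with the mean of each gene's probe sets 14 of 21 were. Their median log2 fold change was -0.047, with a range from -0.50 for Cxcl9 to 0.23 for Ccl11, and the median over all expressed genes was 0.001. The 22 dimmer genes leaned the other way, with 8 below 0 and 14 above and a median of 0.037.

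The lean to lower values differed by array. Knockout 1 was the lowest of the 4 arrays in 12 of the 21 expressed genes (57.1%), and in 29.8% of all expressed genes. Without knockout 1, 11 of the 21 genes stayed below 0. Leaving out knockout 2 gave 19, and leaving out wild type 1 or wild type 2 gave 14 in each case. Knockout 1 was also lowest in 8 of 10 macrophage, 6 of 8 neutrophil, 5 of 8 T cell and 4 of 7 mast cell markers. It was lowest in 1 of 8 B cell, 1 of 7 endothelial and 1 of 9 luminal markers. The log2 of the summed macrophage markers was 12.15 and 12.24 in knockouts and 12.36 and 12.26 in wild type, and all 10 of those markers were lower on average in knockouts (median fold change -0.096). For the 8 measured neutrophil markers, 7 of them expressed, the sums were 9.35 and 9.71 against 9.88 and 9.79, and 7 had a fold change below 0. The part of any cell type in the chemokine values was not tested.

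**Figure D1:**
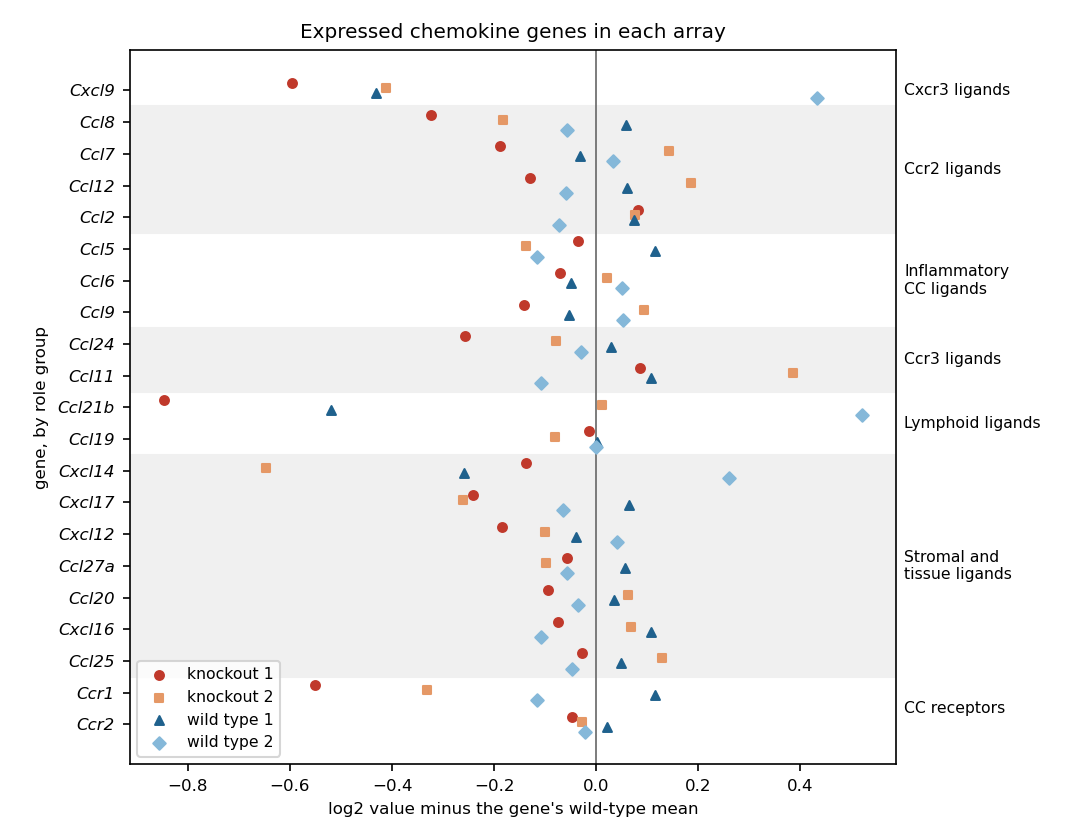
Each of the 21 expressed chemokine genes (vertical axis, by role group) in the 4 arrays, as the log2 value minus the gene's wild-type mean; circles and squares are knockout arrays, triangles and diamonds wild-type arrays. Knockout 1 is the lowest array in 12 genes, Ccr1 and Ccl8 keep the genotypes apart, and the single high array of Cxcl9 is wild type 2.

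Cxcl9, Cxcl10 and Cxcl11 are induced by interferon and draw activated T cells and natural killer cells through Cxcr3. Cxcl9 had the largest fold change of the expressed genes. Its log2 values were 6.82 and 7.00 in knockouts and 6.98 and 7.85 in wild type. A single array, wild type 2, stood above the other 3, and wild type 1 lay between the 2 knockouts. The log2 fold change was -0.50 (SE 0.287, 95% interval -1.24 to 0.24; limma adjusted p = 0.765). It was -0.07 without wild type 2 and -0.94 without wild type 1.

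Cxcl10, under the expression minimum, was split differently. Its values were 4.61 and 4.66 in knockouts and 4.99 and 4.88 in wild type, so both knockouts lay below both wild types. The log2 fold change was -0.30 (SE 0.074; limma unadjusted p = 0.010, adjusted p = 0.693). Cxcl11, dimmer still, had values of 4.38 and 4.52 against 4.61 and 4.49, which overlap, and a fold change of -0.10. The receptor of the 3 ligands, Cxcr3, lay between 4.77 and 4.88 in all 4 arrays.

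Of a list of 29 interferon response genes 24 were measured, and all 24 were lower on average in knockouts (median fold change -0.38). Wild type 2 was the highest array in 23 of them and knockout 1 the lowest in 19. The genotypes did not overlap in 12 of the 24 (50.0%), all lower in knockouts, against 37.6% of all genes in either direction. In limma 6 (25.0%) were at an unadjusted p under 0.05, against 7.01% of all genes, with none past the threshold. The GTPases Iigp1 and Igtp led them with -1.12 and -0.75. The list's median deviation from each gene's mean was -0.31 and -0.05 in knockouts and -0.04 and 0.39 in wild type. Cxcl9 followed that order of arrays at its top and bottom. Cxcl10 and Cxcl11 were also lowest in knockout 1, but highest in wild type 1. None of 6 natural killer cell markers and 4 of 8 T cell markers were expressed. The natural killer markers summed to 6.77 and 6.78 in knockouts and 6.94 and 6.89 in wild type on the log2 scale, and the T cell markers to 8.18 and 8.23 against 8.30 and 8.24. Their part in the values of the 3 ligands was not tested.

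**Figure D2:**
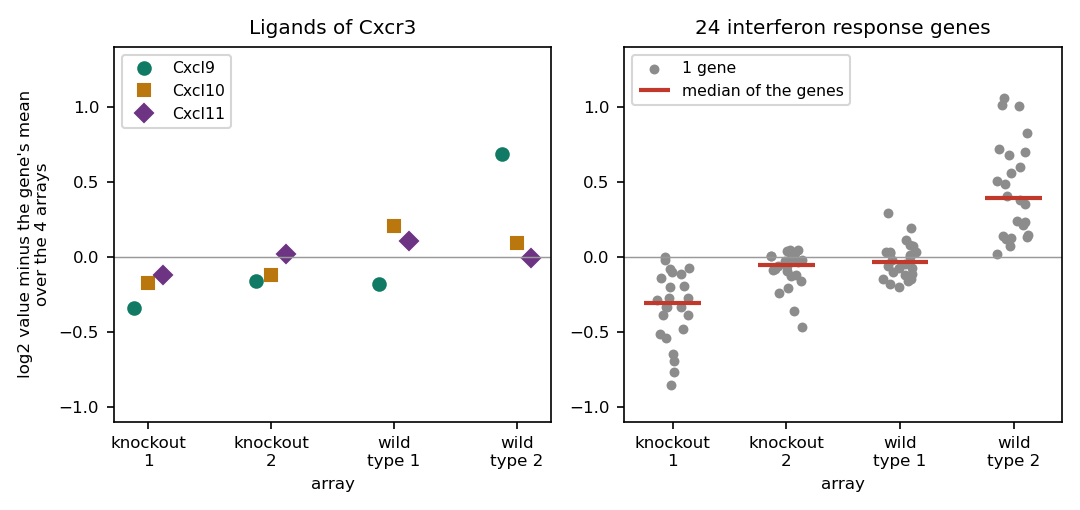
Log2 value minus the gene's mean over the 4 arrays (vertical axis), by array (horizontal axis), for the 3 ligands of Cxcr3 at the left and for 24 interferon response genes at the right, where each point is a gene and the line the median. The high array of Cxcl9, wild type 2, is also the one where the list's median is highest, at 0.39, whereas Cxcl10 and Cxcl11 are highest in wild type 1.

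Ccl2, Ccl7 and Ccl12 draw monocytes, mainly through Ccr2. Ccl8 was grouped with them here, and all 4 were expressed. Ccl8 was the member that differed most, with values of 5.72 and 5.86 in knockouts and 6.10 and 5.98 in wild type. Its knockout arrays lay below its wild-type arrays, a log2 fold change of -0.25 (SE 0.085; limma unadjusted p = 0.032, adjusted p = 0.693). Ccl2, the classical monocyte attractant, had 6.79 and 6.79 against 6.78 and 6.64. Its arrays did not overlap, and its fold change of 0.08 was about the size of its error (SE 0.078; limma adjusted p = 0.866). Ccl7 and Ccl12 had overlapping arrays and fold changes of -0.02 and 0.03. Ccr2 itself, the receptor that brings monocytes out of the bone marrow, lay between 6.58 and 6.65 in all arrays, a fold change of -0.04 (SE 0.064). The second brightest Ccr2 probe set, with a mean of 5.38, gave 5.22 and 5.35 in knockouts against 5.50 and 5.46 in wild type. Those arrays did not overlap, a fold change of -0.20 (SE 0.077, limma unadjusted p = 0.047, adjusted p = 0.729 over all probe sets). The dimmer ones gave -0.12 and -0.11.

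Ccr1 is a receptor of macrophages, neutrophils and other leukocytes for Ccl3, Ccl5, Ccl6 and Ccl9, and had the smallest unadjusted p of the expressed genes. Its log2 values were 6.45 and 6.67 in knockouts and 7.11 and 6.88 in wild type. Both knockouts lay below both wild types, with means of 6.56 ± 0.156 and 7.00 ± 0.164 (SD, n = 2 arrays each), or 1.36-fold lower in knockouts. The log2 fold change was -0.44 (SE 0.119, 95% interval -0.75 to -0.13; limma unadjusted p = 0.014, adjusted p = 0.693). With any 1 array left out it ran from -0.33 to -0.56. A dim second probe set of Ccr1, with a mean of 3.94, gave -0.09, and the mean of both probe sets gave -0.27.

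Of the 5 inflammatory CC ligands Ccl3, Ccl4, Ccl5, Ccl6 and Ccl9, 3 were expressed, and none of those 3 was at an unadjusted p under 0.05 in limma. Ccl6 and Ccl9, both made by myeloid cells of rodents, were the brightest, and Ccl6 had 9.55 and 9.64 in knockouts against 9.57 and 9.67 in wild type. The fold change was -0.02 (SE 0.076) for Ccl6 and -0.02 (SE 0.103) for Ccl9, both with overlapping arrays and 95% intervals of -0.22 to 0.17 and -0.29 to 0.24. Ccl5, a product of T cells, natural killer cells and macrophages, had 5.61 and 5.51 against 5.76 and 5.53, which overlap, and a fold change of -0.09 (SE 0.101). Without wild type 1 its fold change was 0.03. Ccl3, an attractant made by activated macrophages, was dim but split by genotype, with 3.86 and 3.88 in knockouts and 4.12 and 4.15 in wild type. Its log2 fold change was -0.26 (SE 0.064; limma unadjusted p = 0.009, adjusted p = 0.693). The mean of Ccl3 was 4.00, under the minimum, where the medians of the nonspecific controls were 3.26 to 3.28. Ccl4, its neighbour on the chromosome and closest relative, was also dim and had 0.04.

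Ccl11 and Ccl24 draw eosinophils through Ccr3, and they differed in opposite directions. Ccl11 was the expressed gene with the largest value above 0, with 8.71 and 9.01 in knockouts and 8.73 and 8.51 in wild type. A single array, knockout 2, was higher than the rest, and knockout 1 lay just below wild type 1. Its log2 fold change was 0.23 (SE 0.133, 95% interval -0.11 to 0.58; limma adjusted p = 0.765), and 0.08 without knockout 2. Ccl24 had 7.44 and 7.62 against 7.72 and 7.66, with no overlap, a difference of -0.17 (SE 0.086; limma adjusted p = 0.753). Their receptor Ccr3 was dim. None of 4 eosinophil markers measured was expressed, and their sums stayed between 5.75 and 5.80 in the 4 arrays.

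Ccl19 and Ccl21b guide lymphocytes and dendritic cells to lymphoid tissue, and the inguinal gland encloses a lymph node. Ccl21b had 5.57 and 6.43 in knockouts and 5.90 and 6.94 in wild type. The arrays overlapped widely and differed more within each genotype than between them, with a log2 fold change of -0.42 (SE 0.432; limma adjusted p = 0.877). Leaving out 1 array moved it from -0.94 to 0.10. Its probe set is of a kind that matches several related transcripts, so Ccl21b cannot be told apart here from its near-identical copies. Ccl19 had narrow spread, with 6.66 and 6.59 against 6.68 and 6.67 and a fold change of -0.05 (SE 0.066). Of 10 markers of lymph node stroma and high endothelium 3 were expressed, and the list's sums were 9.73 and 9.84 in knockouts and 9.71 and 9.65 in wild type. The adhesion molecule Madcam1 had -0.50 and lymphotoxin beta, Ltb, 0.46, and neither passed the threshold (limma adjusted p = 0.693 for each). Of 8 T cell markers 7 had fold changes below 0 (median -0.04), and of 5 dendritic cell markers 3 were above 0 and 2 below. All 8 B cell markers had fold changes above 0, but only 2 of the 8 were expressed. In 6 (75.0%) both knockouts lay above both wild types, against 18.2% of all genes. The sums were 7.89 and 7.89 in knockouts and 7.55 and 7.69 in wild type. The largest was Ms4a1, which encodes CD20, at 0.76, with a mean of 4.94, under the minimum. None passed the threshold in limma. The part of the node in these values was not tested.

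The stromal and tissue ligands held 9 genes, of which 7 were expressed and 6 of those had a fold change below 0, or 5 of 6 without Cxcl12, for which no direction is given. Cxcl17, a ligand of mucosal epithelia, had 5.19 and 5.17 in knockouts and 5.50 and 5.37 in wild type. The genotypes did not overlap, and the log2 fold change was -0.25 (SE 0.075; limma unadjusted p = 0.021, adjusted p = 0.693). The remaining ligands, Ccl20, Ccl25, Ccl27a and Cxcl16, which act mainly on lymphocytes of skin and mucosa or are made by macrophages, had fold changes from -0.08 to 0.05. Their limma adjusted p ran from 0.861 to 1.00.

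Epithelial markers were also lower in knockouts. Of 9 luminal markers 8 had fold changes below 0 and 7 (77.8%), all lower in knockouts, did not overlap between genotypes. Over all genes 37.6% did not overlap, in either direction. The median of the 9 was -0.20, and the log2 of their sum was 11.52 and 11.46 in knockouts against 11.82 and 11.68 in wild type. The adhesion molecule Epcam had -0.31. All 5 basal markers were below 0, with a median of -0.27 and sums of 12.14 and 12.17 against 12.26 and 12.22. None passed the threshold in limma. At an unadjusted p under 0.05 limma gave 4 luminal (44.4%) and 2 basal markers (40.0%), against 7.01% of all genes. The part of epithelial content in Cxcl17 and Cxcl14 was not tested.

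Cxcl14, a ligand of skin and other epithelia, was measured by 2 probe sets. The brighter one gave 6.92 and 6.41 in knockouts and 6.80 and 7.32 in wild type. The genotypes overlapped, since knockout 1 lay above wild type 1, and the log2 fold change was -0.39 (SE 0.239; limma adjusted p = 0.778). The second probe set gave 6.42 and 6.36 against 6.65 and 6.88, with no overlap and a fold change of -0.37 (SE 0.097; limma unadjusted p = 0.011, adjusted p = 0.706 over all probe sets). Both probe sets were thus lower in knockouts by a similar amount, with different spread.

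Hair follicle markers split the arrays into the same pairs as the within-genotype order of the brighter Cxcl14 probe set. Of 9 measured markers of hair follicle and epidermis 6 were expressed, and 5 of the 9 (Msx2, Krt71, Krt25, Krt27 and Tchh) were over 1 higher in both of knockout 1 and wild type 2 than in the other arrays, while the epidermal keratins Krt1 and Krt10 were not. The list's log2 sums were high in knockout 1 (12.24) and wild type 2 (12.00) and low in knockout 2 (8.25) and wild type 1 (8.24). The brighter Cxcl14 probe set differed by -0.40 within the pair with high sums and by -0.39 within the pair with low sums. Each pair holds 1 array per genotype, and the pairs were read off these arrays after their values were seen. Over all genes same-numbered arrays deviated in opposite directions (correlation -0.48), so this split is not particular to Cxcl14. The second probe set had 6.42 in knockout 1 against 6.88 in wild type 2, and 6.36 in knockout 2 against 6.65 in wild type 1. The part of hair follicle RNA in the Cxcl14 values was not tested.

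Cxcl12, the stromal ligand that retains stem cells and lymphocytes in tissue, was the gene whose probe sets disagreed most. The brightest gave 10.39 and 10.47 in knockouts and 10.53 and 10.61 in wild type. There was no overlap, and the log2 fold change was -0.14 (SE 0.073, 95% interval -0.33 to 0.05; limma adjusted p = 0.752). The second probe set gave 9.44 and 9.73 against 9.23 and 9.17, also with no overlap but in the opposite direction, a fold change of 0.38 (SE 0.113; limma unadjusted p = 0.018, adjusted p = 0.706). The gap between them was 0.95 and 0.74 in knockouts and 1.30 and 1.44 in wild type. This difference between genotypes was not tested, and the mean of the probe sets gave 0.07. No direction is therefore given for Cxcl12. The scavenging receptor of Cxcl12, Ackr3, had 10.39 and 10.46 in knockouts and 10.13 and 10.24 in wild type, 0.24 higher in knockouts (SE 0.076; limma adjusted p = 0.693).

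Several probe sets were on the array for 14 of the 43 genes, 65 probe sets in all. In 7 genes at least 2 of them had a mean of 5 or more, and in 3 of those (Ccl27a, Cxcl12 and Cxcl16) the fold changes lay on both sides of 0. For Ccl27a and Cxcl16 they were no larger than 0.14 on either side.

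**Figure D3:**
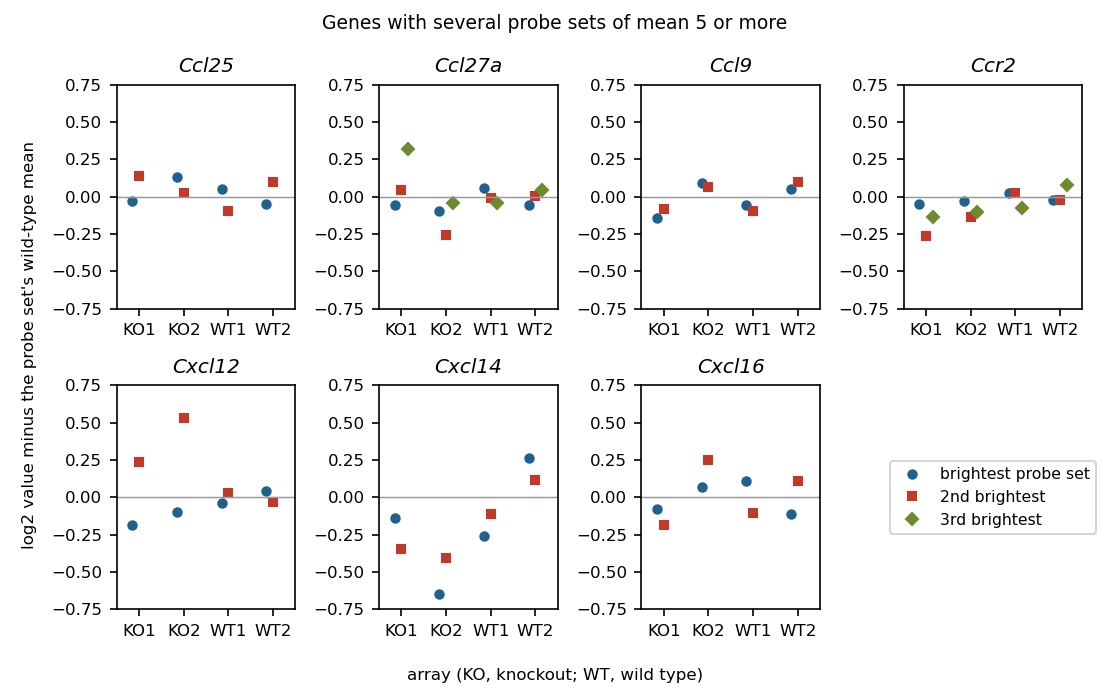
The 7 genes with at least 2 probe sets of mean 5 or more, 1 panel each: log2 value minus the probe set's wild-type mean (vertical axis) in each array (horizontal axis), with circles for the brightest probe set, squares for the second and diamonds for the third. In Cxcl14 both probe sets lie low in knockouts, and in Cxcl12 the second lies high while the brightest lies low.

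Receptors were mostly under the minimum. Of 9 CC receptors only Ccr1 and Ccr2 were expressed, and the 11 receptors that were not had means of 3.55 to 4.81. Their fold changes ran from -0.03 to 0.18. The dim neutrophil attractants had fold changes of -0.07 to 0.10, with 2 above 0 and 2 below. RMA compresses values near background, so differences in these genes can be understated.

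**Figure D4:**
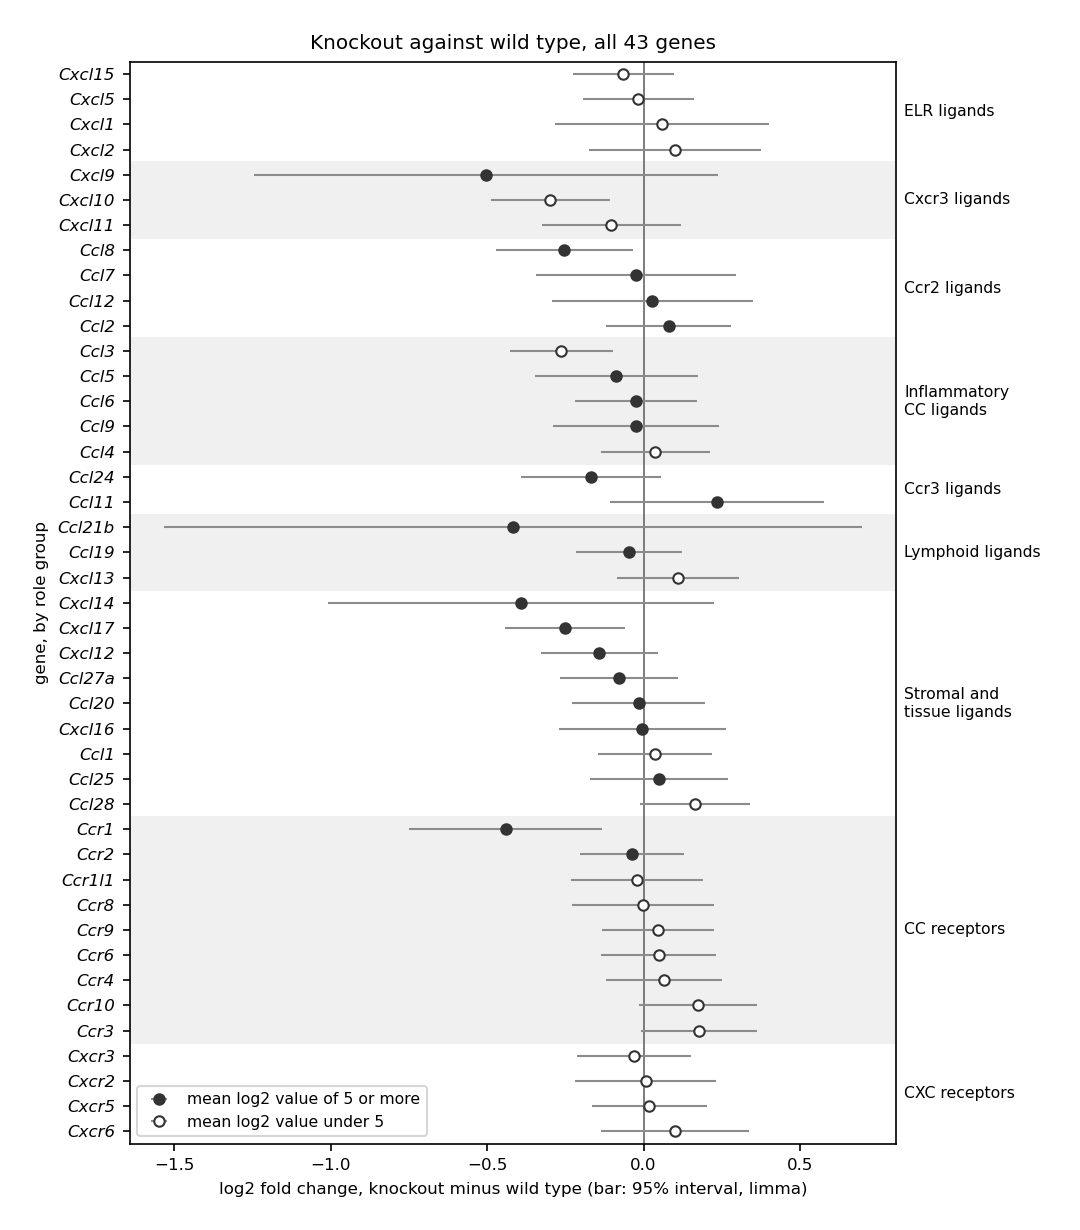
Log2 fold change of knockout minus wild type (horizontal axis) for all 43 genes by role group (vertical axis), with 95% intervals from limma; filled points are expressed genes and open points genes with a mean under 5. The intervals of Ccr1, Ccl8, Cxcl17, Cxcl10 and Ccl3 lie below 0 before adjustment, and no interval lies above 0.

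Many chemokine genes lie side by side in the RefSeq gene order (GRCm38.p6). On chromosome 11, Ccl2, Ccl7, Ccl11, Ccl12, Ccl8 and Ccl1 follow each other with 0 protein-coding genes between them, and 5 of the 6 were expressed. Within that row Ccl11 had 0.23 and Ccl8 -0.25. Farther along, Ccl5, Ccl9, Ccl6, Ccl3 and Ccl4 also lie together, with 3 of 5 expressed. On chromosome 5, Cxcl9 and Cxcl10 lie with 1 gene between them, and the 4 neutrophil attractants lie together, none of them expressed. The row of 6 receptors on chromosome 9 from Ccr9 to Ccr2 held both expressed receptors. At their brightest probe sets Ccr1 had -0.44 and Ccr2 -0.04.

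Other genes of the chemokine system, such as atypical receptors, G proteins, receptor kinases and matrix carriers, were measured for 41 genes, 35 of them expressed. None passed the threshold in limma. At an unadjusted p under 0.05 were 3 higher and 1 lower in knockouts (9.76%), against 7.01% of all genes, and 26 had fold changes above 0 and 15 below, with a median of 0.02. The largest was Cmklr1, the receptor of the adipose chemoattractant chemerin, with 7.08 and 7.41 in knockouts and 6.62 and 6.34 in wild type. Its knockouts lay above its wild types, a fold change of 0.77 (SE 0.152; limma adjusted p = 0.693). Rarres2, which encodes chemerin, had 0.20 with overlapping arrays. The receptor kinase Grk3 had 0.61, and Rgs2, which shortens G-protein signals, had -0.46.

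A list of 19 measured genes of the acute inflammatory response, which share NF-kB control with several of these ligands, held 11 above 0 and 8 below, with a median of 0.015. None passed the threshold, and 2 (10.5%) were at an unadjusted p under 0.05 in limma, against 7.01% of all genes. These were Csf1, the growth factor of macrophages, with 0.26, and Nfkbiz, a cofactor of NF-kB, with 0.24, both higher in knockouts. The 10 macrophage markers, by contrast, were all below 0.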

How the data were processed

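The 4 arrays were Affymetrix 3′ IVT arrays labelled from 200 ng of total RNA, per the labels' protocols. The authors deposited log2 expression values per probe set that they made by RMA (affy), per the submitters' processing notes, whose version is not given in the sources used here. This method puts the arrays on 1 distribution of intensities and compresses fold changes of dim genes. Precision is limited by the number of arrays. Fold changes had a median standard error of 0.080 on the log2 scale, with a median half-width of 0.206 for the 95% interval.

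The table held 45141 probe sets, of which 104 were controls. In the platform annotation 28898 had 1 gene symbol, 551 had several and 15588 were not listed. The brightest probe set of each gene was kept, which left 17097 genes. Knockout was compared with wild type over all of them by limma 3.58.1 (lmFit, eBayes; R 4.3.3), two-sided and with no covariate, with 2 residual and 2.96 prior degrees of freedom and Benjamini-Hochberg adjustment (threshold 0.05). Exact permutation of 2 against 2 arrays gives no p below 0.333, so every p rests on limma's model. The steps were tested on simulated data.

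The genes, role groups and marker lists were chosen with earlier results of these data known. Array values are given for every gene at an unadjusted p under 0.05 and the 10 expressed genes of largest fold change. They are also given for the brightest and most changed gene of each role group. That makes 15 in all, and further genes are given where a result turns on them. Ackr3, Rarres2 and the second probe sets of Cxcl12, Cxcl14 and Ccr2 were singled out after their values were seen. Lists are described by counts, medians and the log2 of their summed linear values. Alternatives were quantile normalization, median centring, a filter on dim genes, averaging a gene's probe sets, every probe set tested, an intensity trend or robust variances, the replicate number as a block, and each array left out.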

Additional observations from a re-analysis of the deposited data

How the results depend on the processing

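No chemokine gene passed the threshold under any of the 13 alternatives, which include a block on the replicate number (0 genes past, 5 at an unadjusted p under 0.05) and a crossed pairing added after the data were seen (0 and 7). The replicate numbers did not pair the arrays: same-numbered arrays deviated in opposite directions, with a correlation over genes of -0.48. With only genes of mean at least 5 tested, 3 were at an unadjusted p under 0.05, since Cxcl10 and Ccl3 are dimmer. With 1 array left out 2 to 5 genes were, not always the same ones, and 1 to 5 of the original 5. Under the replicate block Ccl21b (SE 0.080, limma unadjusted p = 0.010, adjusted p = 0.716) took the place of Ccl8. The median of expressed genes, -0.047, ran from -0.130 to -0.028 with 1 array left out, and the count of expressed genes below 0, 17, ran from 11 to 19. With a minimum of 4 in place of 5, 37 genes counted as expressed, and with 6, 14. Of the 15 genes given by array, 4 changed direction: Cxcl12 (0.070 with the mean of probe sets) and, with 1 array left out, Ccl21b (-0.94 to 0.10), Ccl6 (-0.075 to 0.026) and Ccl5 (-0.20 to 0.029). The other 11, Ccr1, Cxcl10, Ccl3, Ccl8 and Cxcl17 among them, kept their direction. Signal limits the genes under the minimum, whose means ran from 3.29 to 4.81, where the medians of the nonspecific controls were 3.26 to 3.28.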
